A study of Mus musculus with 2 samples.

Results

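Secreted factors through which stromal cells of the gut set BMP and Wnt signalling in the overlying epithelium were followed in droplet single-cell RNA-seq of normal mouse duodenum and of mouse polyps. The 9 genes, chosen by name among the 32285 in the deposited matrices, were the BMP family ligands Bmp2, Bmp4, Bmp5, Bmp7 and Gdf10, the BMP antagonist Grem1, the Wnt amplifier Rspo3, the Wnt inhibitor Sfrp1 and the Wnt ligand Wnt5a. Polyps of 3 mice with the genotype Lkb1flox/+;Myh11-Cre/ERT2 gave 1 library. Normal duodenum gave the other, from 3 control animals with the genotype Lkb1+/+;Myh11-Cre/ERT2. Both groups carried the Cre, fused to a tamoxifen-responsive oestrogen receptor and driven by the promoter of Myh11, a myosin heavy chain of smooth muscle and pericytes, and the polyp mice carried 1 floxed allele of Lkb1, the kinase gene also called Stk11. The source label of both samples was duodenum, and the site of each polyp, the age of the mice and the tamoxifen schedule were not given in the sources used here.

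Each group was 1 library in which the cells of 3 mice could not be separated, so no difference between normal and polyp tissue could be tested, and every 95% interval given here covers counting error only. The libraries held 39222238 and 63566462 UMIs (unique molecular identifiers, each standing for 1 captured transcript) in normal and polyp tissue, and 3252 of 9950 and 8460 of 14327 barcodes passed the filter. Fibroblasts were barcodes with at least 5 UMIs of Dcn, Col1a1, Col1a2 and Col3a1 together that met no epithelial, immune or endothelial gate and had no larger sum of contractile genes. This gave 27 normal and 190 polyp fibroblasts, 1.34% (0.884 to 1.94) and 3.27% (2.83 to 3.76) of classified cells, shares that dissociation can set. All 10 fibroblast markers were detected in both sets of fibroblasts, and the summed level of that list was 22585 CPM (counts per 1000000 UMIs of the class) in normal and 20330 CPM in polyp cells. The other classes used were 14 and 29 contractile cells, with at least 5 UMIs of Myh11, Actg2, Des, Cnn1, Acta2 and Tagln and open to smooth muscle and pericytes alike, and 1017 and 4104 epithelial cells, with at least 5 UMIs of Epcam, Cdh1, Krt8, Krt18, Krt19 and Cldn7. The total behind the fibroblast levels was 128402 UMIs in the normal and 450182 in the polyp library, with median UMIs per fibroblast of 4826 and 2057. Lkb1 itself (Stk11) was read at 77.9 CPM from 10 UMIs in normal and 57.8 CPM from 26 UMIs in polyp fibroblasts, and at 29.9 and 38.9 CPM in epithelium, but reads near the 3' end of a transcript do not check a deletion elsewhere in the gene.

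BMP proteins are secreted dimers of the TGF-beta superfamily that bind serine/threonine kinase receptors and act through Smad transcription factors. In the intestine they are most active towards the villus, where they favour differentiation, and antagonists made by stroma near the crypt base, Gremlin 1 among them, shield stem cells from them. Wnt signals maintain those stem cells, R-spondins amplify the signal by preserving Wnt receptors, secreted frizzled-related proteins bind Wnts and frizzleds, and Wnt5a is the prototype of Wnts that signal without beta-catenin. Villus-facing subepithelial fibroblasts high in Pdgfra are known as a source of BMP ligands and Wnt5a, and Cd34-positive fibroblasts below the crypts as a source of Grem1 and R-spondins.

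On mm10 (GENCODE M21) Bmp2 lies at chr2:133552159-133562885, Bmp7 at chr2:172868012-172940321 and Grem1 at chr2:113746164-113758646. Bmp4 lies at chr14:46383520-46390669, Gdf10 at chr14:33923587-33937983 and Wnt5a at chr14:28504750-28527448. Bmp5 lies at chr9:75775364-75900310, Rspo3 at chr10:29452416-29535867 and Sfrp1 at chr8:23411502-23449632. Bmp2, Bmp5, Gdf10, Sfrp1 and Wnt5a are on the plus strand and the rest on the minus strand. Same-strand predicted genes overlap Bmp5 (Gm47723) and Rspo3 (Gm20276), where reads could be split between the pair. The RefSeq promoter table (GRCm38.p6) matched 4 of the 9 genes, not Bmp2, Bmp7, Rspo3, Sfrp1 or Wnt5a. The 250 bases before the start of these 4 are printed because Bmp4, Bmp5 and Grem1 were all at least 2-fold higher in polyp fibroblasts and Gdf10 more than 2-fold lower. Capitals mark the letters GGCGCC.
Bmp4 chr14:46390670-46390919 (minus strand): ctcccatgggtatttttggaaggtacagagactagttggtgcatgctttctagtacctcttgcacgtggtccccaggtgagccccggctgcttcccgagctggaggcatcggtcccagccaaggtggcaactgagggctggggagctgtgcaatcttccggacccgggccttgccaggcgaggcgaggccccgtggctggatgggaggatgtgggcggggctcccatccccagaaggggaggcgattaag
Bmp5 chr9:75775115-75775364 (plus strand): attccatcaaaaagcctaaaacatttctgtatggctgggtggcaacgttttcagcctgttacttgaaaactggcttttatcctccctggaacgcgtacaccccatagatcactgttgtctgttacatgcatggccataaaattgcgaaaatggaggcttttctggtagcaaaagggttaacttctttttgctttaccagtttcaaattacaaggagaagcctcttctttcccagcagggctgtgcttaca
Gdf10 chr14:33923337-33923586 (plus strand): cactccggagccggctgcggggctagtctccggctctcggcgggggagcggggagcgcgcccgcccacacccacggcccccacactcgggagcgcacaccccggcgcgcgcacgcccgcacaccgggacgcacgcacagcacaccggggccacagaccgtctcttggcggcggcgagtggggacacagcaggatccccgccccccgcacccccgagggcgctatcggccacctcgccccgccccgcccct
Grem1 chr2:113758649-113758898 (minus strand): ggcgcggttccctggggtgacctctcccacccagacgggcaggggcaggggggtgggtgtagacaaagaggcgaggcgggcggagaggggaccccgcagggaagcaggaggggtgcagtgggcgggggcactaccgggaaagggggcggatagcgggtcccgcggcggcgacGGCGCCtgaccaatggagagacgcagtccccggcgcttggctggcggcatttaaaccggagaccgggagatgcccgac

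The 4 windows differed in base composition, with 63.2% G and C before Bmp4, 42.8% before Bmp5, 78.8% before Gdf10 and 72% before Grem1. In all, 7 sets of letters were searched on both strands, and their shares of 32851 RefSeq windows of the same length were 1.55% for TGACGTCA, 17.8% for TGACG (which the former contains), 0.225% for the GLI letters TGGGTGGTC, 3.21% for the TCF/LEF letters CTTTGAT, 3.17% for the FOX letters TGTTTAC, 9.59% for the SMAD letters GGCGCC and 12.4% for TATAAA. The only match in the 4 windows was GGCGCC before Grem1, which 9.59% of windows hold.

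Fibroblast and contractile cells held 37.4% (34 to 41) of the 767 UMIs of the 9 factors in the normal library and 50.8% (49.3 to 52.4) of the 4167 in the polyp library, over all barcodes that passed the filter. With a strict cell filter the shares were closer, 51.6% and 54.0%, and with cells thinned to 1000 UMIs 61.2% and 68.5%. Bmp5, Grem1, Rspo3, Sfrp1 and Gdf10 sat mainly in stroma. In the normal library stroma held 100% of 10 Bmp5 UMIs, 95.5% of 66 Grem1 UMIs, 95% of 20 Rspo3 UMIs, 88.5% of 96 Sfrp1 UMIs and 88% of 50 Gdf10 UMIs. In the polyp the same shares were 69.4% of 111 for Bmp5, 72.4% of 381 for Grem1, 57.4% of 94 for Rspo3, 72.1% of 1787 for Sfrp1 and 65.4% of 81 for Gdf10. Bmp4 had 61.9% of 21 UMIs in normal and 70.1% of 231 in polyp stroma. Bmp2, Bmp7 and Wnt5a had most of their UMIs elsewhere. For Bmp2, stroma held 3.72% of 376 normal and 14.3% of 959 polyp UMIs, and epithelium held 325 and 561 UMIs. For Bmp7 the stromal share was 18.2% of 55 and 8.48% of 236 UMIs. For Wnt5a it was 39.7% of 73 normal UMIs, with 42 more in mixed barcodes, and 18.1% of 287 polyp UMIs, of which 197 were in epithelium. Since epithelial cells far outnumbered stromal cells, a gene at a low level in epithelium could still place most of its UMIs there.

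**Figure D1:**
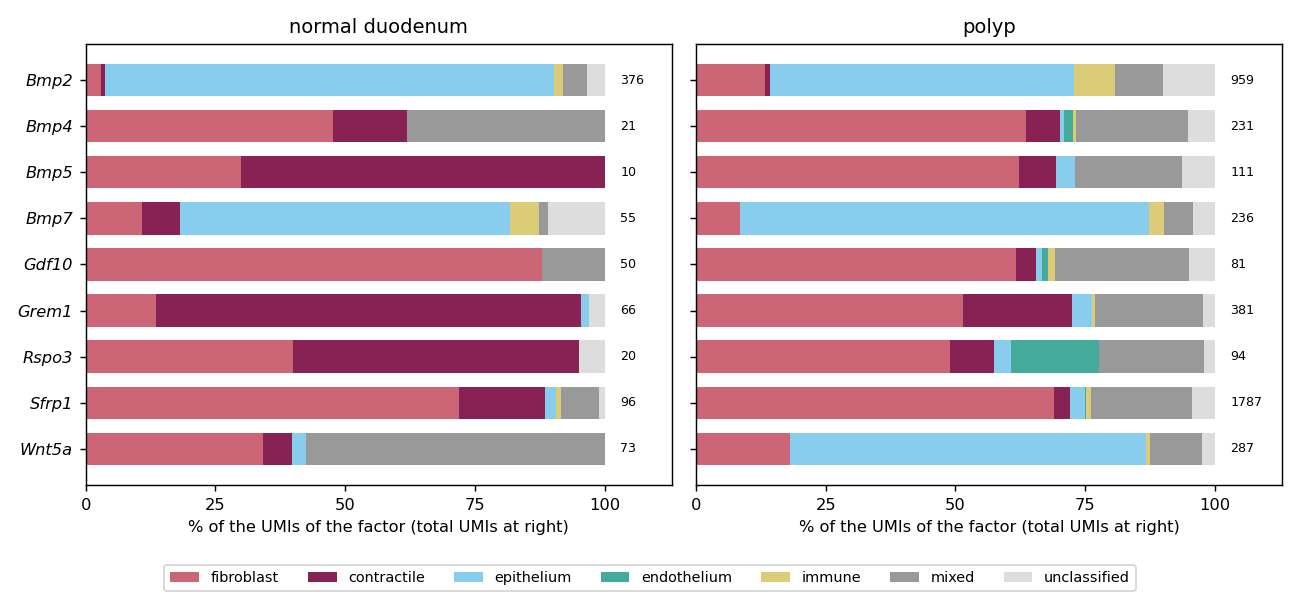
Share of each factor's UMIs (percent, horizontal axis) found in each cell class, 1 bar per factor for the normal and the polyp library, with the total UMIs at the right. Bmp2 is mostly epithelial in both libraries, Grem1 and Sfrp1 are mostly stromal, and most Wnt5a UMIs are in stromal and mixed barcodes in normal tissue and in epithelium in the polyp.

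In fibroblasts, 5 of the 9 factors (Bmp2, Bmp4, Bmp5, Grem1 and Sfrp1) were at least 2-fold higher in the polyp library and 1 (Gdf10) was at least 2-fold lower. All 9 had the 20 UMIs over both libraries that were required. Over the 3930 genes that met the same requirement, 14.0% were at least 2-fold higher and 9.06% at least 2-fold lower, and the median log2 ratio was 1.67 for the factors and -0.02 for all genes. The 9 were a small and chosen set, and no chance level was computed for the count.

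Bmp2, a ligand of the villus tip in normal gut, was read at 85.7 CPM (42.8 to 153, 11 UMIs) in normal and 284 CPM (237 to 338, 128 UMIs) in polyp fibroblasts, 3.32-fold higher (1.79 to 6.82). A smaller share of polyp than of normal fibroblasts had a Bmp2 UMI as deposited, 44 of 190 (23.2%) against 9 of 27 (33.3%). With cells thinned to 1000 UMIs the shares were 27 of 160 (16.9%, 11.4 to 23.6) and 1 of 25 (4%, 0.101 to 20.35). The intervals overlap in both settings and the thinned normal value is 1 cell, so neither order is settled. Its polyp level was uneven, with 17 UMIs in 1 barcode, while no normal fibroblast had more than 3. Bmp4, a ligand long known from gut mesenchyme, was at 77.9 CPM (37.4 to 143, 10 UMIs) in normal and 327 CPM (276 to 384, 147 UMIs) in polyp fibroblasts, 4.19-fold higher (2.22 to 8.93). A Bmp4 UMI was found in 84 of 190 polyp fibroblasts (44.2%), more than for Bmp2, and in 8 of 27 normal ones (29.6%).

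Bmp5, a close relative of Bmp7, rested on a single barcode in normal tissue, which held all 3 of its UMIs (23.4 CPM, 4.82 to 68.3). The polyp level was 153 CPM (119 to 194), from 69 UMIs in 30 of 190 fibroblasts (15.8%), 6.56-fold higher (2.15 to 32.6). That single normal barcode also had 42 UMIs of Pdgfra, 7 of Wnt5a and 2 of Bmp7. With every barcode of the fibroblast gate counted, those of other gates included (38 normal, 269 polyp), the Bmp5 ratio was 2.34 (41.0 and 96.0 CPM) and the Bmp4 ratio 2.38, both still past 2-fold. Bmp7 itself was at 46.7 CPM (17.2 to 102, 6 UMIs in 4 cells) in normal and 44.4 CPM (27.1 to 68.6, 20 UMIs in 14 cells) in polyp fibroblasts. Its ratio of 0.951 had an interval from 0.368 to 2.89, which leaves differences of more than 2-fold in either direction undetectable at this depth.

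Gdf10, a divergent BMP family member also called Bmp3b, went the other way. It was at 343 CPM (249 to 460.0) in normal fibroblasts, from 44 UMIs in 13 of 27 cells, and at 111 CPM (82.4 to 146) in the polyp, from 50 UMIs in 27 of 190 cells (14.2%). The polyp level was 3.09-fold lower (2.01 to 4.72).

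Grem1, whose protein traps BMP2, BMP4 and BMP7 outside the cell, was at 70.1 CPM (32.1 to 133) in normal and 435 CPM (377 to 501) in polyp fibroblasts, 6.21-fold higher (3.21 to 13.8). The normal value came from 2 cells, 1 of which held 8 of the 9 UMIs, and without the top barcode of each library the ratio was 50.5. In the polyp it was spread over 61 of 190 fibroblasts (32.1%), so the direction did not rest on that cell but the size of the ratio did. With the fibroblast gate alone it was 3.47. Rspo3, the only R-spondin with 20 UMIs in these fibroblasts, was at 62.3 CPM (26.9 to 123, 8 UMIs) in normal and 102 CPM (74.8 to 136, 46 UMIs) in the polyp, a ratio of 1.64 (0.767 to 4.02) that counting error alone does not separate from 1.

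Sfrp1, which binds Wnt proteins and blocks them, had the most UMIs of the 9. It was at 537 CPM (418 to 680, 69 UMIs) in normal and 2739 CPM (2588 to 2896, 1233 UMIs) in polyp fibroblasts, 5.10-fold higher (4.0 to 6.59). A UMI was found in 15 of 27 normal (55.6%) and 159 of 190 polyp fibroblasts (83.7%), a higher share in the library with the shallower cells. One normal barcode held 23 of the 69 UMIs, and without the top barcodes the ratio was 7.14, while thinning to 1000 UMIs gave 2.82. Wnt5a was at 195 CPM (126 to 287, 25 UMIs in 9 cells) in normal and 116 CPM (86.3 to 152, 52 UMIs in 26 cells) in polyp fibroblasts, a ratio of 0.593 (0.362 to 0.998). The treatment of barcodes in several gates moved this ratio. The 8 normal barcodes that met the fibroblast gate together with another gate held 42 Wnt5a UMIs, in 6 of the 8. With the fibroblast gate alone, which adds these and the 3 normal and 10 polyp barcodes otherwise counted as contractile, the levels were 291 and 70.6 CPM and the ratio was 0.242. The comparable 69 mixed barcodes of the polyp held 20 Wnt5a UMIs in 9 barcodes.

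**Figure D2:**
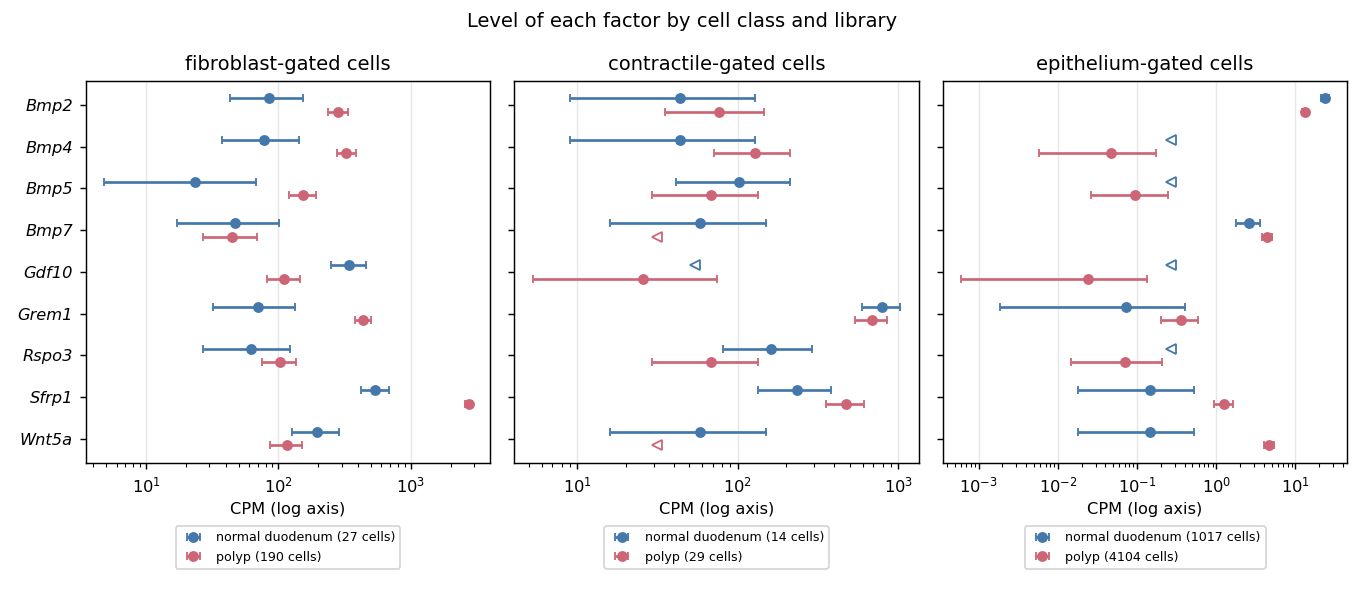
Level of each factor (CPM, log axis) in fibroblasts, contractile cells and epithelium, with exact 95% Poisson intervals that cover counting error only, normal and polyp libraries side by side, and open triangles at the upper limit where no UMI was seen. In fibroblasts Sfrp1 stands at 537 and 2739 CPM, Gdf10 at 343 and 111 CPM, and Bmp7 overlaps between the libraries.

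Several marker lists differed between the normal and polyp sets of fibroblasts beside these ratios. The list of adventitial and trophocyte fibroblasts (Cd34, Pi16, C3, Ly6a and others) summed to 8980 CPM with 9 of 9 genes detected in normal and 2706 CPM with 8 of 9 in the polyp, where Dpp4 was at 0. The subepithelial list (Pdgfra, F3, Procr, Tnc and others) summed to 849 CPM with 6 of 8 genes in normal, Foxl1 and Dll1 at 0, and 1091 CPM with 8 of 8 in the polyp. Pericyte markers were at 117 CPM (5 of 7) and 738 CPM (7 of 7), and smooth muscle markers at 125 CPM (6 of 8) and 1357 CPM (8 of 8). Endothelial markers were at 0 and 11.1 CPM. Mesothelial markers were at 46.7 CPM (2 of 5) and 124 CPM (2 of 5), with Wt1 and Krt19 detected and Msln, Upk3b and Lrrn4 at 0 in both. Pancreatic acinar markers were at 1877 CPM (4 of 4) and 258 CPM (3 of 4), and erythroid markers at 132 CPM (1 of 3) and 1166 CPM (2 of 3). Epithelial markers were at 218 and 635 CPM, and the mucous peptide gene Tff2 was at 436 and 16125 CPM in fibroblasts and at 666 and 14317 CPM in immune cells. The part these lists play in the ratios was not tested. Leaving out the 1 normal and 33 polyp fibroblasts with at least 2 pericyte UMIs gave the same 5 factors higher and the same 1 lower. The normal cell left out held all 3 normal Bmp5 UMIs, so the Bmp5 ratio there, 7.09, is only a bound against a floor of 3 UMIs. Subtracting the immune level of each gene also gave the same 5 and the same 1.

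The ratio was also taken within the subset that held most normal fibroblasts. Of 27 normal fibroblasts, 23 had at least 2 more UMIs of the Cd34 list than of the Pdgfra list, against 100 of 190 polyp fibroblasts. Neither list holds any of the 9 factors, and the subset is a cut on a range, not a cell type. It did not make the libraries alike: the median Cd34-list sum was 38 UMIs in normal and 8 in polyp cells of the subset, at median depths of 5580 and 2088 UMIs. C3 was at 4146 and 1650.5 CPM there, Dpp4 at 176 and 0 CPM, and the pericyte gene Rgs5 at 0 and 435 CPM, and their part in the ratios was not tested. Within the Cd34-list cells, a comparison chosen after the data were seen, Bmp2 was at 61.5 and 220 CPM (3.57-fold higher, 1.62 to 9.32) and Bmp4 at 79.1 and 346 CPM (4.38-fold, 2.20 to 9.92). Grem1 was at 79.1 and 616 CPM (7.80-fold, 4.0 to 17.4) and Sfrp1 at 589 and 3170 CPM (5.39-fold, 4.19 to 7.03). Bmp5 had no UMI in the 23 normal cells and 71.8 CPM in the polyp, at least 2.72-fold higher when set against a floor of 3 UMIs, with an exact lower limit of 1.98. Gdf10 was at 307 and 131 CPM, 2.35-fold lower (1.41 to 3.94). Wnt5a was at 158 CPM in normal and 63.3 CPM in the polyp, 2.5-fold lower (1.19 to 5.32). Rspo3 had a ratio of 1.68 (0.747 to 4.27), and Bmp7, with 4 UMIs in each library, 0.481 (0.0895 to 2.58). Bmp2, Bmp4, Grem1 and Sfrp1 were thus at least 2-fold higher here too.

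**Figure D3:**
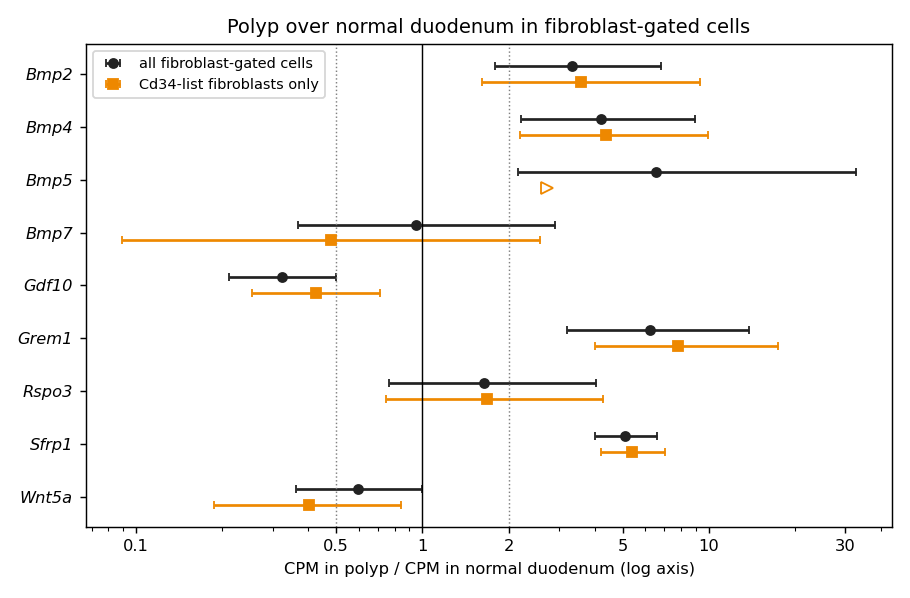
Ratio of polyp over normal level (log axis) for each factor in all fibroblasts (black) and in Cd34-list fibroblasts only (orange), with exact 95% intervals for counting error, dotted lines at 0.5 and 2, and an open triangle for the lower bound of Bmp5. Bmp2, Bmp4, Grem1 and Sfrp1 lie above 2 in both sets and Gdf10 lies below 0.5 in both.

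Within the polyp library, 36 fibroblasts had at least 2 more UMIs of the Pdgfra list than of the Cd34 list, 100 had the reverse, and 54 lay between. The cut is soft: 8 Pdgfra-list cells sat just inside it and 12 cells just outside, and 12 and 17 at the Cd34 end. Median depths were 3225.5 UMIs in Pdgfra-list, 2088 in Cd34-list and 1323.5 in intermediate cells. The ligands Bmp2, Bmp5, Bmp7 and Wnt5a were more than 2-fold higher in Pdgfra-list cells. Bmp5 was at 348 CPM there and 71.8 CPM in Cd34-list cells (4.85-fold, 2.72 to 9.06). Bmp7 was at 111 and 16.9 CPM (6.56-fold, 2.06 to 27.4), from 14 and 4 UMIs, short of the 20 required elsewhere. Wnt5a stood at 269 and 63.3 CPM (4.25-fold, 2.25 to 8.39), and 1 barcode held 12 of its 34 UMIs in Pdgfra-list cells and 1 held 5 of its 15 in Cd34-list cells. The barcode with 12 had 16445 UMIs in total and also held 4 of Bmp5, 4 of Bmp7, 8 of Grem1 and 10 of Sfrp1. Bmp2 was at 475 and 220 CPM (2.16-fold, 1.47 to 3.20), and at a ratio of 1.98 (1.36 to 2.89) with a margin of 1 UMI in place of 2. Its top barcodes held 17 of 60 UMIs in Pdgfra-list and 15 of 52 in Cd34-list cells. The intervals do not cover such unevenness between cells. Bmp4 did not share this pattern, at 261 and 346 CPM (0.754, 0.488 to 1.14).

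The extracellular inhibitors lay at the other end. Grem1 was at 158 CPM in Pdgfra-list and 616 CPM in Cd34-list cells, 3.90-fold lower in the former (2.43 to 6.57), and Sfrp1 was at 1843 and 3170 CPM, 1.72-fold lower (1.48 to 2.0). Rspo3 was at 39.6 and 118 CPM, 2.99-fold lower (1.14 to 9.91), but with the margin of 1 UMI it was 1.98-fold lower with an interval from 0.928 to 4.71. Gdf10 was at 63.3 and 131 CPM, 2.07-fold lower, with an interval from 0.930 to 5.21. Since all these cells come from 1 library, the intervals describe sampling of transcripts and not variation between mice.

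**Figure D4:**
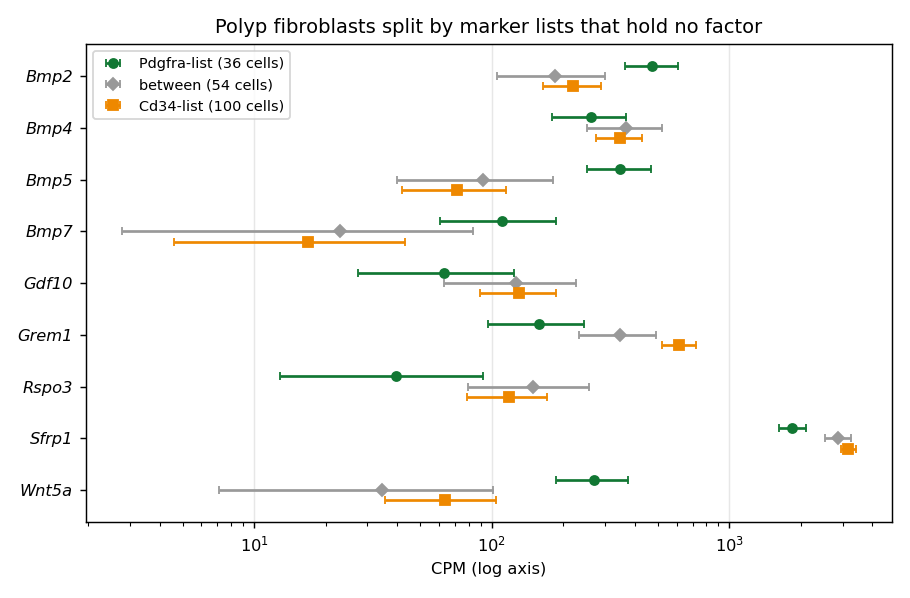
Level of each factor (CPM, log axis) in polyp fibroblasts of the Pdgfra list (36 cells), between the lists (54 cells) and of the Cd34 list (100 cells), with exact 95% Poisson intervals for counting error. Bmp5, Bmp7 and Wnt5a are highest in the Pdgfra-list cells and Grem1 in the Cd34-list cells at 616 CPM.

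Cell by cell, Bmp5 and Bmp7 showed the same division. In 190 polyp fibroblasts, 5 of the 36 pairs of factors were found together in at least 2 times the number of cells expected from their separate shares, and all 5 were pairs among Bmp2, Bmp5, Bmp7 and Wnt5a. Bmp5 and Bmp7 shared 13 cells against 2.2 expected, Bmp5 and Wnt5a 14 against 4.1, and Bmp7 and Wnt5a 8 against 1.9. Bmp2 shared 16 cells with Bmp5 (6.9 expected) and 11 with Bmp7 (3.2 expected). Cells that were read deeply count towards every pair, which raises such overlaps. The barcode of 16445 UMIs counts in each pair among Bmp5, Bmp7 and Wnt5a. Several pairs across the division fell short of expectation: Gdf10 shared no cell with Bmp5 (4.3 expected), Grem1 shared 1 with Bmp7 (4.5 expected) and 5 with Bmp5 (9.6 expected), and Sfrp1 shared 4 with Bmp7 (11.7 expected). Bmp2 did not follow them, with 14 cells shared with Grem1 (14.1 expected) and 11 with Rspo3 (8.1 expected).

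Grem1 sat almost wholly within the Sfrp1 cells, with 60 of 61 Grem1-positive cells also holding Sfrp1 (51.0 expected), and its level was 504 CPM in cells with an Sfrp1 UMI and 15.8 CPM in cells without. With 160 cells thinned to 1000 UMIs, Bmp5 and Bmp7 shared 2 cells (0.64 expected), Bmp5 and Wnt5a 4 (0.85 expected) and Bmp7 and Wnt5a 2 (0.3 expected). These pairs were again past 2 times the expectation, but with fewer than 1 cell expected they rest on few cells and are not counted below. Of the 27 pairs with at least 1 cell expected, 4 reached 2 times the expectation: Bmp2 and Bmp5 (9 cells, 2.9 expected), Bmp2 and Bmp7 (4 cells, 1.0 expected), Bmp4 and Bmp7 (3 cells, 1.4 expected), and Grem1 and Rspo3 (6 cells, 2.0 expected). Bmp5 and Grem1 shared 1 thinned cell against 3.7 expected.

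**Figure D5:**
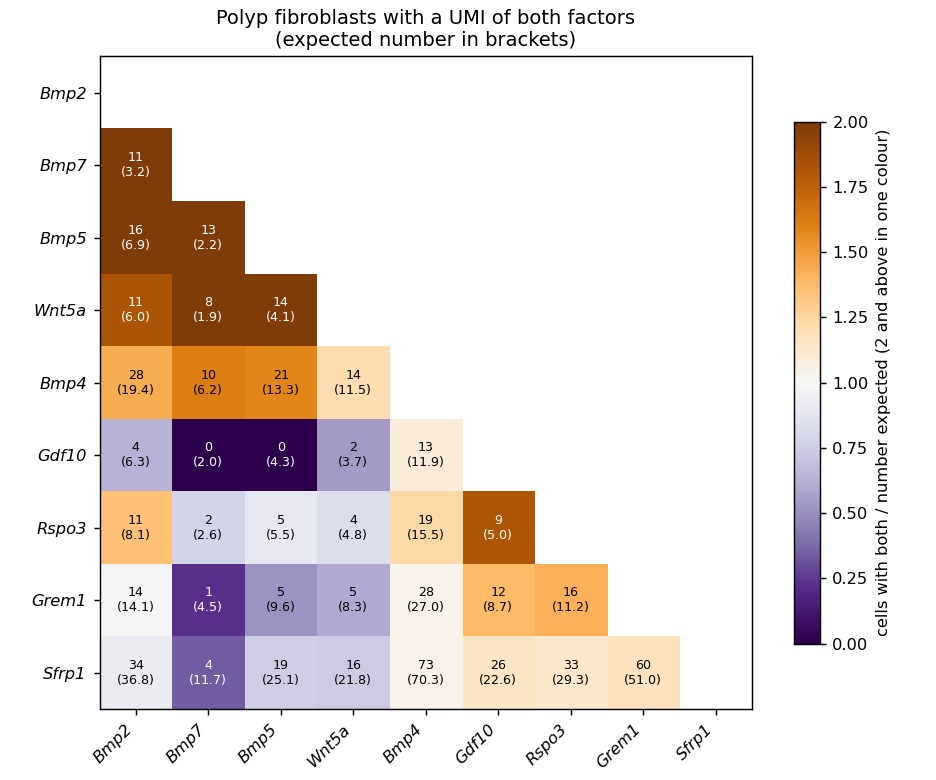
Number of the 190 polyp fibroblasts with a UMI of both factors of each pair, as deposited, with the number expected from their separate shares in brackets and the colour giving the ratio. Pairs among Bmp2, Bmp5, Bmp7 and Wnt5a exceed expectation, up to 13 cells against 2.2 for Bmp5 and Bmp7, and Gdf10 shares no cell with Bmp5.

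Correlations of log(1 + UMIs per 10000) across fibroblasts gave the same grouping, as a description of cells that share a library and differ in depth. Over 190 polyp and 27 normal cells r was 0.57 and 0.57 for Bmp5 with Bmp7, 0.45 and 0.35 for Bmp2 with Bmp7, 0.35 and 0.55 for Bmp5 with Wnt5a, and 0.27 and 0.59 for Grem1 with Sfrp1. Every normal r of Bmp5 rests on the 1 normal cell that held it, which also held 7 UMIs of Wnt5a and 2 of Bmp7. The normal r of Grem1 rests on 2 cells, and 1 of these held 8 of the 9 Grem1 and 23 of the 69 Sfrp1 UMIs. The normal r of Bmp7 rests on 6 UMIs in 4 cells. Such normal values do not stand as a repeat of the polyp ones. Sfrp1 ran against Bmp7, with r of -0.42 and -0.36. Among 1180 other genes, those most like the ligands were few and shared. Procr, a protein C receptor gene that was itself on the Pdgfra list, had r of 0.49 with Bmp7, 0.42 with Bmp5, 0.40 with Bmp2 and 0.37 with Wnt5a in the polyp, and 0.36, 0.70, 0.36 and 0.51 in normal cells. In normal fibroblasts Procr had only 2 UMIs in Pdgfra-list and 2 in Cd34-list cells, so its normal r values are no repeat either. Gja1, which encodes connexin 43, had 0.44 with Bmp2 and 0.37 with Bmp7 in the polyp, and 0.40 and 0.41 in normal cells. Efemp1, a matrix fibulin, had 0.36 with Bmp2 and 0.41 with Bmp5 in the polyp but -0.20 and 0.16 in normal cells. Postn, the matrix protein periostin, had 0.41 with Bmp5 and AW112010 had 0.36 with Bmp7 in the polyp, and -0.04 and -0.21 in normal cells.

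Bmp4 was most like Cxcl12, a chemokine gene, with r of 0.38 in polyp and 0.49 in normal cells, followed by Fn1, fibronectin (0.33 in the polyp but -0.23 in normal cells), and Ifitm1 (0.32 and 0.18). Sfrp1 was most like Fbln1, the matrix protein fibulin 1 (0.49 and 0.65 in normal), Dpt, dermatopontin (0.43 and 0.11), and Fmo2, a flavin monooxygenase (0.40 and 0.77). Grem1 was most like the complement gene C3 (0.37 and 0.14), which is on the Cd34 list, and Pnp (0.31 and 0.12). Gdf10 was most like Inmt, a methyltransferase gene (0.36 and 0.53), and Vkorc1 (0.32 and 0.12). No gene reached 0.3 with Rspo3.

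Most fibroblasts carried several of the 9. As deposited, 17 of 27 normal (63.0%) and 140 of 190 polyp fibroblasts (73.7%) held UMIs of more than 1 factor, and 2 and 12 held none. Thinned to 1000 UMIs, 24% of normal and 52.5% of polyp cells held more than 1, and 28% and 6.88% held none. No fibroblast held all 9: the most in 1 cell was 5 in normal and 7 in polyp tissue.

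In contractile cells only Grem1 and Sfrp1 had 20 UMIs, and 1 of these 2, Sfrp1, was at least 2-fold higher in the polyp, where 10.2% of the 1376 genes tested were higher and 8.36% lower. Grem1 was at 791 CPM (594 to 1032) in 14 normal and 682 CPM (541 to 849) in 29 polyp cells, a ratio of 0.863 (0.603 to 1.24). Its UMIs came from few of them, 54 UMIs in 4 normal cells and 80 in 9 polyp cells. Grem1 was therefore 11.3-fold higher in contractile cells than in fibroblasts (5.52 to 26.0) in the normal library and 1.57-fold higher (1.19 to 2.04) in the polyp. Sfrp1 was at 234 CPM (16 UMIs in 3 cells) in normal and 469 CPM (55 UMIs in 9 cells) in polyp contractile cells, 2.0-fold higher (1.13 to 3.74). That value lies on the 2-fold limit: it was 1.95 without a cell filter, 1.96 with a strict one, 1.64 with gates at 10 UMIs and 1.99 with the immune level subtracted. It moved to 7.02 when barcodes that met both stromal gates were all given to the fibroblasts, and to 4.85 without the top barcodes. Unlike Grem1, Sfrp1 was lower in contractile cells than in fibroblasts, by 2.29-fold (1.32 to 4.23) in normal and 5.84-fold (4.46 to 7.80) in polyp tissue.

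The other 7 factors had few UMIs in contractile cells. Bmp4 had 3 normal and 15 polyp UMIs, Bmp2 3 and 9, Bmp5 7 and 8, Rspo3 11 and 8, and Gdf10 0 and 3. Bmp7 and Wnt5a each had 4 UMIs in normal tissue and none in the polyp. All 4 of each came from 1 barcode, which also held 6 of Bmp5, 20 of Pdgfra and 24 of Acta2. One other normal contractile cell, with 59 UMIs of Myh11 and 236 of Acta2, held 13 of Grem1, 12 of Sfrp1 and 7 of Rspo3.

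In epithelium 4 of the 9 had 20 UMIs, of which 2 (Wnt5a and Sfrp1) were at least 2-fold higher in the polyp and none lower, beside 21.2% and 13.2% of 13872 genes. Of the normal epithelial cells 542 were grouped as enterocytes, 168 as goblet, 147 as Paneth and 88 as crypt cells. Of the polyp epithelial cells 2918 were grouped as gastric surface and 990 as gland cells. Epithelial ratios therefore compare epithelia of different make-up and not like cells. The median epithelial gene was itself 1.08-fold higher in the polyp (0.11 on the log2 scale), so ratios in epithelium are given relative to it. As a background level, the T-like immune cells (793 normal, 487 polyp), which should lack these factors, are given beside them. They were shallower, with median UMIs of 3178 and 2164 against 8851 and 7079.5 in epithelium, so levels in CPM are compared rather than shares of cells. Bmp2 stood above that background in both libraries. Its level was 23.9 CPM (21.4 to 26.7) in normal and 13.4 CPM (12.3 to 14.5) in polyp epithelium, against 1.81 and 2.51 CPM in T-like cells. The relative ratio was 0.516 (0.450 to 0.594), short of 2-fold, and the share of cells with a UMI was 17.2% and 10.4%, or 3.02% and 1.24% with cells thinned to 1000 UMIs. Bmp2 in fibroblasts was 3.58-fold above epithelium in normal tissue and 21.3-fold above it in the polyp.

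Wnt5a had 2 UMIs, both in 1 cell, among 1017 normal epithelial cells (0.147 CPM) and 197 UMIs in 169 of 4104 polyp epithelial cells (4.69 CPM, 4.06 to 5.39). The ratio was 29.5 (8.05 to 245) relative to the median gene. Polyp T-like cells had 1 Wnt5a UMI (0.837 CPM) and all polyp immune cells 2 (0.424 CPM). With cells thinned to 1000 UMIs, 16 of 3697 polyp epithelial cells (0.433%) and none in normal tissue had a UMI. As a share of class UMIs, the polyp level was 24.7-fold lower (17.8 to 33.6) than in polyp fibroblasts.

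For Bmp7 and Sfrp1, taken over all epithelial cells, the background was of the same order as the epithelial level. Bmp7 was at 2.58 CPM (35 UMIs) in normal and 4.43 CPM (186 UMIs) in polyp epithelium, a relative ratio of 1.59 (1.10 to 2.35). Polyp T-like cells were at 4.19 CPM (1.36 to 9.77) from 5 UMIs and normal ones at 1.09 CPM, while all immune cells were lower, at 1.48 CPM (0.596 to 3.06) in the polyp and 0.661 CPM in normal tissue. Over the whole class, epithelial Bmp7 thus lay above the level of all immune cells, but the T-like cells, at this depth, do not set it apart. Within epithelium Bmp7 was uneven. In normal tissue it was at 10.4 CPM (6.49 to 15.7, 18 of 88 cells) in crypt cells and 0.119 CPM in enterocytes. In the polyp it was at 9.72 CPM (7.92 to 11.8, 89 of 990 cells) in gland cells and 2.56 CPM in gastric surface cells. The crypt interval lies above that of normal T-like cells (0.225 to 3.18), while the gland interval overlaps that of polyp ones. Sfrp1 was at 0.147 and 1.26 CPM, a relative ratio of 7.92 (2.09 to 67.1), beside 0.837 CPM in polyp T-like cells and 3.60 CPM in all polyp immune cells, and is not read as a difference. The 5 others had no more than 15 UMIs in polyp epithelium, Grem1 with 15 and 1 in normal, and 4 or fewer each for Bmp4, Bmp5, Gdf10 and Rspo3.

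Epithelial cells with a UMI of these genes differed from those without in other genes as well as in depth, and the genes named here were chosen after their values were seen. Polyp cells with Wnt5a had median UMIs of 13519 against 6484. They had the regenerating-islet lectin Reg3b at 13048 against 3540 CPM (3.69-fold) and Spp1, osteopontin, at 2338 against 873 CPM (2.68-fold), while the gastrokine Gkn2 was 5.39-fold lower, at 2861 against 15406 CPM. Polyp cells with Bmp2 had the opposite Gkn2 pattern, at 28509 against 11142 CPM (2.56-fold higher), together with Psca at 1640 against 425 CPM. Polyp cells with Bmp7 had the gastric genes Cblif (intrinsic factor) at 854 against 97.9 CPM and Pgc (pepsinogen C) at 9567 against 1674 CPM. In normal tissue, cells with Bmp7 had the crypt gene Olfm4 at 1623 against 342 CPM and the enterocyte lipid carrier Fabp1 at 141 against 9402 CPM, and cells with Bmp2 had the trefoil gene Tff1 at 5257 against 965 CPM. Normal cells with Bmp2 also had Gkn2 at 2789 against 950 CPM and Psca at 195 against 11.2 CPM. The direction of both was the same as in the polyp.

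Other genes of both pathways in fibroblasts, from lists drawn up by role, gave a mixed picture, to be read against the 14.0% of all tested genes that were at least 2-fold higher and the 9.06% lower. Of 14 BMP ligands 5 could be tested, all among the 9 factors. Of 17 BMP antagonists and modulators 8 could be tested, with 1 higher (Grem1), 2 lower (Nbl1 and Smoc2) and a median log2 ratio of -0.40. Nbl1, a DAN-family BMP antagonist related to Gremlin, was at 623 CPM in normal and 191 CPM in the polyp, 3.26-fold lower (2.38 to 4.47), and Smoc2, a secreted calcium-binding matrix protein, at 327 and 160 CPM, 2.05-fold lower (1.36 to 3.03). Fstl1, a follistatin-like protein, was at 1012 and 513 CPM, 1.97-fold lower. Grem1 and other antagonists thus differed in direction.

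Of 13 BMP receptors and Smads 8 could be tested, with 2 higher and none lower. The type II receptor Bmpr2 was at 125 and 107 CPM. Of 9 BMP target genes 4 could be tested, 3 were at least 2-fold higher and none lower, and the median log2 ratio was 1.37. The Id genes encode helix-loop-helix inhibitors that BMP-activated Smads induce. Id3 was at 475 and 960 CPM (2.02-fold, 1.54 to 2.69). Id2 rested on 3 normal UMIs, at 23.4 and 209 CPM (8.94-fold, 2.97 to 44.1), and Id1 was at 109 and 200 CPM (1.83-fold, 1.04 to 3.49). The third gene past 2-fold was Smad7, an inhibitory Smad named here because it completes that count, 3.65-fold higher (1.49 to 11.6). Many signals other than BMP also act on Id genes.

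On the Wnt side 3 of 13 ligand and secretion genes could be tested and none passed 2-fold in either direction. Wls, which carries Wnts to the cell surface, had a ratio of 1.45. Rspo3 was the only testable gene of 9 R-spondins and their receptors. Of 11 Wnt inhibitors 3 could be tested and 2 were higher, Sfrp1 and its relative Sfrp2 (2.38-fold, 0.725 to 12.3, an interval that spans 1). Of 8 Wnt targets 2 could be tested, Myc at a ratio of 0.872 and Ccnd1 at 1.20, and neither passed 2-fold. Of 9 hedgehog pathway genes, a pathway by which epithelium signals to stroma, 2 could be tested and both were higher. Ptch1, receptor and target of hedgehog, was at 46.7 and 209 CPM (4.47-fold, 1.98 to 12.5), and Gli3 had a ratio of 2.57 (0.615 to 22.8), an interval that also spans 1.

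In contractile cells Id3 and Id1 differed in direction. Id1 was at 1406 CPM in normal and 443 CPM in the polyp, 3.17-fold lower (2.24 to 4.53), and Id3 had a ratio of 1.95 (1.55 to 2.47). The BMP antagonist Chrdl1 was at 337 and 111 CPM, 3.04-fold lower. In epithelium, relative to the median gene, 4 of 6 Wnt ligand and secretion genes were at least 2-fold higher, among them Wls at 3.69-fold, and 1 lower. Of 13 Wnt receptors 8 were higher and 2 lower. The hedgehog ligands differed in opposite directions, with Shh at 0.368 and 20.4 CPM and Ihh at 47.0 and 24.4 CPM in normal and polyp epithelium. Of 8 BMP targets 3 were higher in epithelium, with Id2 at 2.61-fold, Id1 at 1.53-fold and Id3 at 0.980. These list counts were the same without scaling to the median gene. Unscaled, 21.2% of the 13872 genes tested in epithelium were at least 2-fold higher and 13.2% lower, in epithelia of different make-up.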

How the data were processed

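Droplet 3' libraries (10x Genomics) of 2 tissues were read from deposited matrices of raw UMI counts per gene and barcode, made by the authors with Cell Ranger 5.0.0 per the file headers and 3.0.0 per the submitters' processing notes, on mm10. The headers do not settle which version was used. Barcodes with at least 500 UMIs, 250 genes and at most 25% mitochondrial UMIs were kept. Stromal, epithelial and endothelial gates required 5 UMIs and the immune gate 3; barcodes in gates of different kinds were called mixed and left out, and no doublet caller was applied in the reported values. Doublet scores served as an alternative only, since the caller's own threshold marked 0 barcodes. T-like immune cells had at least 2 UMIs of Cd3e, Cd3d, Cd3g and Trac and 0 of C1qa, C1qb, Csf1r and Adgre1, and macrophage-like cells the reverse. The libraries shared 44 barcodes, of which 10 were kept and 0 were fibroblasts.

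UMIs were summed per class and library. Levels carry exact Poisson, ratios exact conditional binomial and shares Clopper-Pearson 95% intervals. Genes needed 20 UMIs over both libraries. No p-value was computed, since each group was 1 library. The 9 factors were all named. From each pathway list up to 3 genes with the most UMIs in a class were eligible, and the 3 genes most correlated with a factor where r was at least 0.3; genes outside this rule are marked as such. The factors and lists were chosen with earlier results of these data known. Scripts ran in Python 3.11.15 with numpy 2.4.6, scipy 1.17.1, pandas 2.3.3, scanpy 1.11.5 and matplotlib 3.10.9, and were tested on simulated counts. Positions came from GENCODE M21, which held 32158 of the 32285 gene IDs.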

Additional observations from a re-analysis of the deposited data

Results flagged for a closer look

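Bmp2 and Wnt5a lay on opposite sides of 1 in fibroblasts and in epithelium of the same pair of libraries. The polyp over normal ratio of Bmp2 was 3.32 in fibroblasts and 0.558 in epithelium (not scaled to the median gene). That of Wnt5a was 0.593 in fibroblasts and 31.9 in epithelium, where the normal library had only 2 UMIs. With 1 library per group the difference between the classes was not tested. The epithelial cells of the normal and polyp libraries were also of different kinds.

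Some of the 9 factors were read in polyp cells outside the stromal and epithelial classes. Rspo3 was at 123 CPM in the 44 endothelial cells of the polyp, from 16 UMIs in 3 cells, and 1 of these cells held 12 of the UMIs. It was not seen in the 6 normal endothelial cells, where the 3 UMIs that a count of 0 allows would be 173 CPM and the exact 95% upper limit is 213 CPM. Bmp2 was at 16.1 CPM in polyp immune cells and 1.54 CPM in normal ones. In the polyp 46 of its 76 immune UMIs came from 12 of 167 macrophage-like cells (104 CPM), and 1 cell held 23 of them. Sfrp1 was at 3.60 CPM in polyp and 0.220 CPM in normal immune cells, far under the 537 and 2739 CPM of normal and polyp fibroblasts. In the polyp 1 immune cell held 10 of its 17 UMIs.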

How the results depend on the processing

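No direction of the 9 fibroblast ratios was reversed among those past 2-fold. The 5 factors at least 2-fold higher were the same 5 in every alternative that gave 5, and Rspo3 joined them with cells averaged or without the top barcodes, making 6. The count at least 2-fold lower went from 1 to 2, Gdf10 and Wnt5a, with the fibroblast gate alone and with cells averaged. The ratio of fibroblast shares, 2.45, was 4.83 without a cell filter. The stromal share of the factors' UMIs was 37.4% in normal tissue and became 28.9% without a cell filter, 51.6% with a strict one, 33.9% with gates at 10 UMIs, 45.9% with the gate alone and 61.2% with thinned cells. In the polyp it was 50.8% and became 48.9%, 54.0%, 48.8%, 65.4% and 68.5% in that order, and 55.4% without high doublet scores. The causes were not tested. Single ratios stayed within their counting interval in 112 of 117 fibroblast, 18 of 22 contractile and 36 of 42 epithelial alternatives. In fibroblasts Bmp7 ranged from 0.481 to 1.38, beside a bound of 0.313 with thinned cells where normal had no UMI, and Rspo3 from 0.987 to 2.33, on both sides of 1, as did contractile Grem1, from 0.600 to 1.26. Epithelial Wnt5a ranged from 1.22 (thinned, a bound because normal had no UMI) to 54.9. No paired analysis was possible because each group was 1 library. Depth limited most the normal stroma, with 27 fibroblasts and 14 contractile cells.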
